A study of Mus musculus with 6 samples.

Results

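The 10 genes described here, of vitamin D handling and of protein uptake by the proximal tubule, were examined in whole kidneys of newborn mice. They are the vitamin D binding protein Gc, the endocytic receptors Lrp2 and Cubn with the receptor subunit Amn and the adaptor Dab2, the endosomal exchanger Clcn5, the nuclear receptors Vdr and Rxra, and the enzymes Cyp27b1 and Cyp24a1. They were selected by name and chosen with the measured values of the same comparison known. The levels of these genes are therefore a description, and no p-value is given for them. Each of the 10 matched 1 of the 23669 gene rows of the deposited table.

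The series compared 3 R26NICD2/+Kspcre kidney samples, called NICD2 below, with 3 wild type samples (WT), all at postnatal day 3. R26NICD2 places the Notch2 intracellular domain in Rosa26, the part of the receptor that acts in the nucleus once Notch is activated. Kspcre is Cre recombinase under the Ksp-cadherin promoter, which is active in kidney tubule epithelium, so recombination is not expected in every kidney cell. The series asks, by its title, about Notch2 activity and the growth of kidney cysts. Whether each sample is another animal is not in the labels, nor whether the WT mice carried Cre. The p-values below are set by how these libraries vary within a group. That variation may be technical only, apart from NICD2 replicate 3, which Y-linked genes set apart in sex.

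Vitamin D circulates bound to the protein that Gc encodes. The complex is filtered in the glomerulus and taken up by proximal tubule cells through megalin (Lrp2) and cubilin (Cubn), which bind filtered proteins at the brush border. Inside the cell Cyp27b1 makes the active hormone calcitriol, which acts through the vitamin D receptor, and Cyp24a1 breaks the hormone and its precursor down.

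Levels are FPKM, fragment counts divided by transcript length and library depth, so they can be set side by side between genes. Depth, estimated from the steps between low values, ran between 15700000 and 17250000 fragments, with 13568 to 13784 genes at 1 FPKM or more. The row named for human Notch2, taken as the transgene, held 75.4, 79.6 and 60.2 FPKM in the NICD2 libraries, against 0, 0.03 and 0.03 FPKM in the WT libraries. The Notch target Nrarp averaged 145 ± 25.4 FPKM in NICD2 and 18.6 ± 1.73 FPKM in WT (SD, n = 3 each). NICD2 replicate 3 held 0 FPKM over 4 Y-linked genes, whose sum was 72.7 to 77.1 FPKM in the other NICD2 libraries and 62.4 to 67.6 FPKM in WT. Without Y-linked transcripts, that library differs in sex from all the others and is not a technical repeat of them. Among the genes named below, leaving that library out ended 5 calls and added 2, each given with its gene.

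The start of Gc is shown with that of Lrp2, its uptake receptor, because Gc was far higher in NICD2 while the Lrp2 values overlapped between the groups. Both are the 250 bases before the transcription start, on the minus strand of GRCm38.p6, from RefSeq. It gave starts for 9 of the 10 genes, all but Cyp24a1. The Gc stretch lies at chr5:89457899-89458148 and the Lrp2 stretch at chr2:69586030-69586279. Capitals mark the letters TGGGAA, the core bound by the Notch partner RBPJ, on either strand, and the letters of HNF1, a tubule and liver transcription factor (GTTAAT, any base, then ATTAA).
Gc: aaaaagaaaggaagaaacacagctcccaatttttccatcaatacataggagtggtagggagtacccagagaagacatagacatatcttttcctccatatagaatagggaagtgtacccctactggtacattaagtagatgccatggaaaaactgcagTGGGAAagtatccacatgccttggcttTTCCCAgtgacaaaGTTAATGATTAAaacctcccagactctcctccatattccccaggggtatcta
Lrp2: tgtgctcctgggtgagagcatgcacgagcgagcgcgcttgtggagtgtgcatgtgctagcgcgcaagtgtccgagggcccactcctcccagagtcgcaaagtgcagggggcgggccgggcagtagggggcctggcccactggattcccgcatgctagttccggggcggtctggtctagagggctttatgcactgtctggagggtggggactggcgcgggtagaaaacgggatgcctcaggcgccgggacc

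In the Gc stretch TGGGAA begins 93 bases before the start and its reverse complement 66 bases before it, with 21 bases between them, and the HNF1 letters begin 52 bases before it. The Lrp2 stretch held none of these letters. TGGGAA occurred on either strand in 21.6% of the 32851 RefSeq promoters of this length and on both strands in 1.28%. It occurred in 4 of the 12 promoters of the genes described here, 1 each of Gc, Rxra, Cyp27b1 and Dab2. The HNF1 letters, searched on both strands and chosen after the Gc sequence was read, occurred in 0.0609% of all promoters. The letters AGGTCA followed by AGGTCA with 3 bases between them, a repeat bound by the vitamin D receptor with its partner, occurred in none of the 12 and in 0.00609% of all. Cyp24a1 is not among the 12, so its promoter was not searched for any of these letters. A match is a run of letters and not a measured binding site.

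Gc encodes the plasma carrier of vitamin D (gene 14473, chromosome 5, 89417511 to 89457898 on GRCm38, minus strand). It held 49.6, 36.6 and 32.7 FPKM in the NICD2 libraries, against 2.67, 3.54 and 3.01 FPKM in the WT libraries. All NICD2 libraries lay far above all WT libraries, and within NICD2 the first replicate was the highest. The NICD2 mean was 12.9 times the WT mean. The difference of log2(FPKM + 1), NICD2 minus WT, from limma was 3.30 ± 0.15 (SE). This scale understates the change of a low gene, and the authors' deposited table gives a log2 fold change of 3.69. Estimated from depth and transcript length, 952 to 1439 fragments lay behind the NICD2 values and 71 to 100 behind the WT values. In WT kidneys 83.8% of the 13765 genes tested had a higher mean level than Gc, and its fold change ranked 6 from the highest among them.

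Set beside Gc, the uptake receptors had values that overlapped between the groups. Lrp2, megalin (gene 14725, chromosome 2, 69424335 to 69586067), held 26.9, 29.8 and 33.9 FPKM in NICD2, against 27.1, 37.2 and 34.2 FPKM in WT. The groups overlapped, and the log2 difference was -0.11 ± 0.12 (SE). Cubn, cubilin (gene 65969, chromosome 2, 13276321 to 13491876), held 9.16, 11.2 and 12.4 FPKM in NICD2, against 9.59, 13.7 and 12.1 FPKM in WT. These groups overlapped as well, with a log2 difference of -0.10 ± 0.14 (SE). The sign of the Cubn difference turned in 2 of 12 alternatives. The ratio of Lrp2 to Cubn was 2.78 ± 0.139 in NICD2 and 2.79 ± 0.0584 in WT (SD, n = 3 each), close to each other in all 6 libraries.

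Amn encodes amnionless, which anchors cubilin in the membrane and brings it to the cell surface (gene 93835, chromosome 12, 111271096 to 111276426). It held 23.0, 26 and 27.9 FPKM in NICD2, against 28.4, 28.7 and 24.1 FPKM in WT, and the groups overlapped. Its log2 difference was -0.07 ± 0.09 (SE). Dab2 encodes a clathrin adaptor that binds the tail of megalin (gene 13132, chromosome 15, 6299788 to 6440715) and was the most abundant of the 10 genes in both groups. It held 76.0, 84.4 and 91.9 FPKM in NICD2, against 90.1, 101 and 99.8 FPKM in WT. The groups overlapped only through NICD2 replicate 3 and WT replicate 1, and the log2 difference was -0.21 ± 0.08 (SE).

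Clcn5 encodes a chloride and proton exchanger of endosomes whose loss in humans causes Dent disease, with protein loss in the urine (gene 12728, chromosome X, 7153810 to 7319359). It held 7.36, 7.84 and 7.36 FPKM in NICD2, against 8.42, 10.5 and 10.8 FPKM in WT. All NICD2 libraries lay below all WT libraries, by little for WT replicate 1, and the NICD2 mean was 75.7% of the WT mean. The log2 difference was -0.35 ± 0.10 (SE), and it was -0.46 without WT replicate 1.

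**Figure D1:**
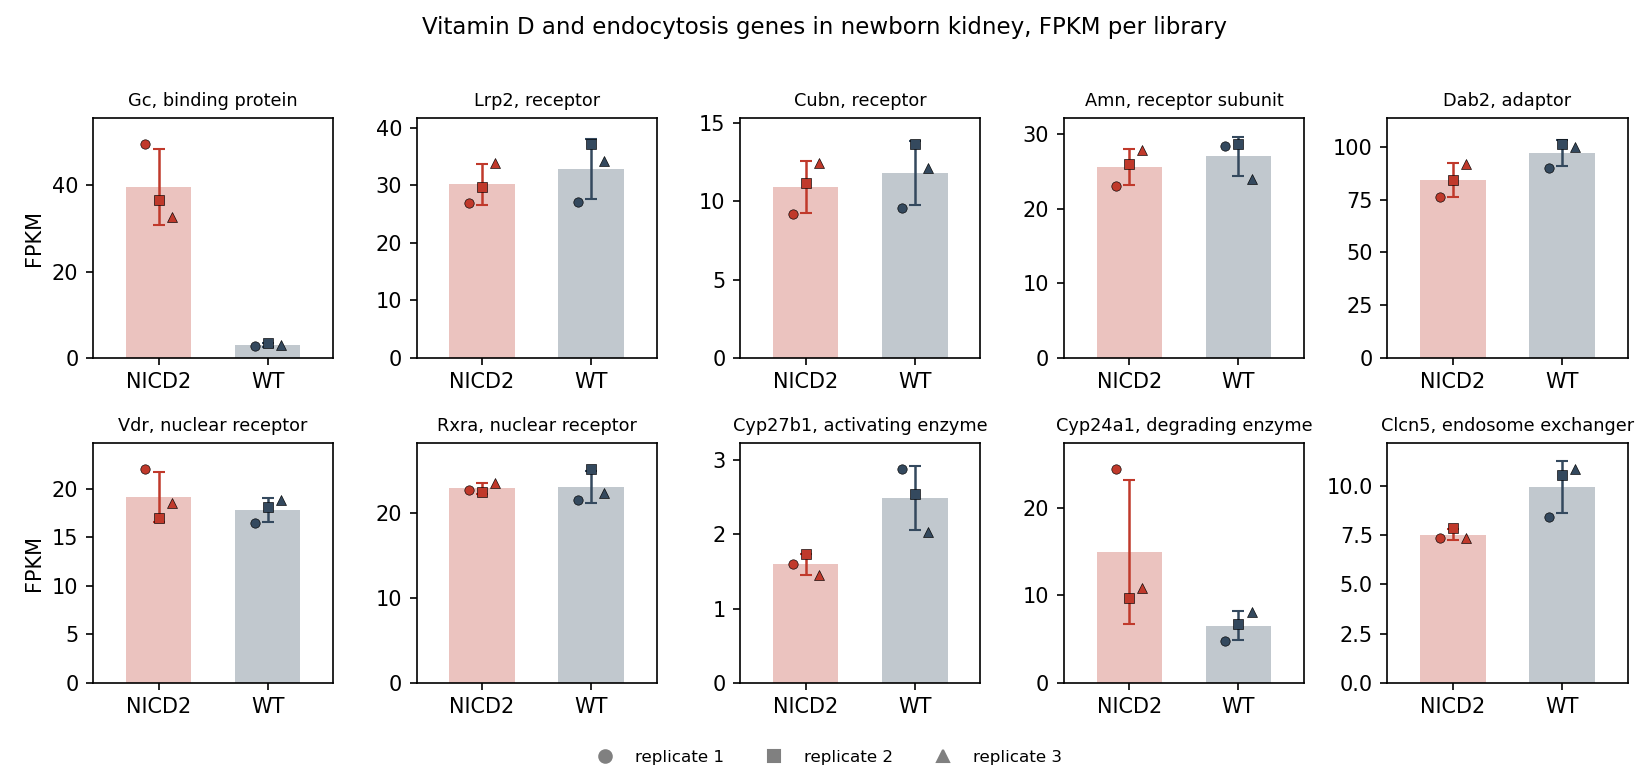
FPKM of the 10 genes in each library (points, shape by replicate) with group means (bars) and SD (error bars), NICD2 left of WT, n = 3 each; each panel has its own axis from 0. Gc stands at 32.7 to 49.6 FPKM in NICD2 and 2.67 to 3.54 FPKM in WT, while Lrp2, Cubn, Amn, Dab2, Vdr and Rxra overlap between the groups.

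The nuclear receptors also overlapped between the groups. Vdr, the receptor for calcitriol (gene 22337, chromosome 15, 97854427 to 97908296), held 22.0, 16.9 and 18.6 FPKM in NICD2, against 16.5, 18.1 and 18.8 FPKM in WT. Its highest value was in NICD2 replicate 1 and the log2 difference was 0.09 ± 0.10 (SE). Rxra, the partner with which the vitamin D receptor binds DNA (gene 20181, chromosome 2, 27676445 to 27763319), held 22.7, 22.4 and 23.6 FPKM in NICD2, against 21.6, 25.2 and 22.3 FPKM in WT. Its log2 difference was -0.01 ± 0.07 (SE), and its sign turned in 4 of 12 alternatives.

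The enzymes that make and break down the hormone had values that lay apart between the groups, in opposite directions, and neither passed the threshold given below. Cyp24a1, the degrading enzyme, is a gene that calcitriol induces (gene 13081, chromosome 2, 170482957 to 170497145). It held 24.4, 9.68 and 10.8 FPKM in NICD2, against 4.83, 6.70 and 8.08 FPKM in WT. All NICD2 libraries lay above all WT libraries, but NICD2 replicate 1 lay far above the other two. The NICD2 mean was 2.29 times the WT mean and the log2 difference was 0.99 ± 0.31 (SE), and it was 0.60 ± 0.17 without NICD2 replicate 1. The authors' deposited table gives Cyp24a1 a log2 fold change of 1.19.

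Cyp27b1 encodes the enzyme that makes calcitriol (gene 13115, chromosome 10, 127048246 to 127053422). It held 1.6, 1.74 and 1.46 FPKM in NICD2, against 2.88, 2.55 and 2.03 FPKM in WT, the lowest level of the 10 genes in both groups. All NICD2 libraries lay below all WT libraries, and the NICD2 mean was 64.3% of the WT mean. The log2 difference was -0.42 ± 0.12 (SE), on the scale that understates the change of a low gene. The authors' deposited table gives Cyp27b1 a log2 fold change of -0.608. The ratio of Cyp24a1 to Cyp27b1 was 15.2, 5.56 and 7.38 in NICD2, against 1.68, 2.63 and 3.98 in WT, so every NICD2 library had a higher ratio than every WT library. Its divisor was low, at no more than 2.88 FPKM in any library.

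The ratio of Gc to Lrp2 was 1.85, 1.23 and 0.965 in NICD2, against 0.0985, 0.0952 and 0.0880 in WT. Transcripts of the binding protein were thus about as abundant per length as those of its receptor in NICD2 kidneys, and much rarer in WT kidneys. In order of level, Gc was the second of the 10 genes in NICD2, where its range overlapped that of Lrp2 below it but not that of Dab2 above it. In WT it was the ninth, with a range that overlapped that of Cyp27b1 below it but not that of Cyp24a1 above it. NICD2 replicate 1 had the highest Gc, Cyp24a1 and Vdr of its group and the lowest Lrp2, Cubn, Amn and Dab2. Its Nrarp, at 171 FPKM, was also the highest of the group, against 143 and 120 FPKM in the others, while its transgene level was not.

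**Figure D2:**
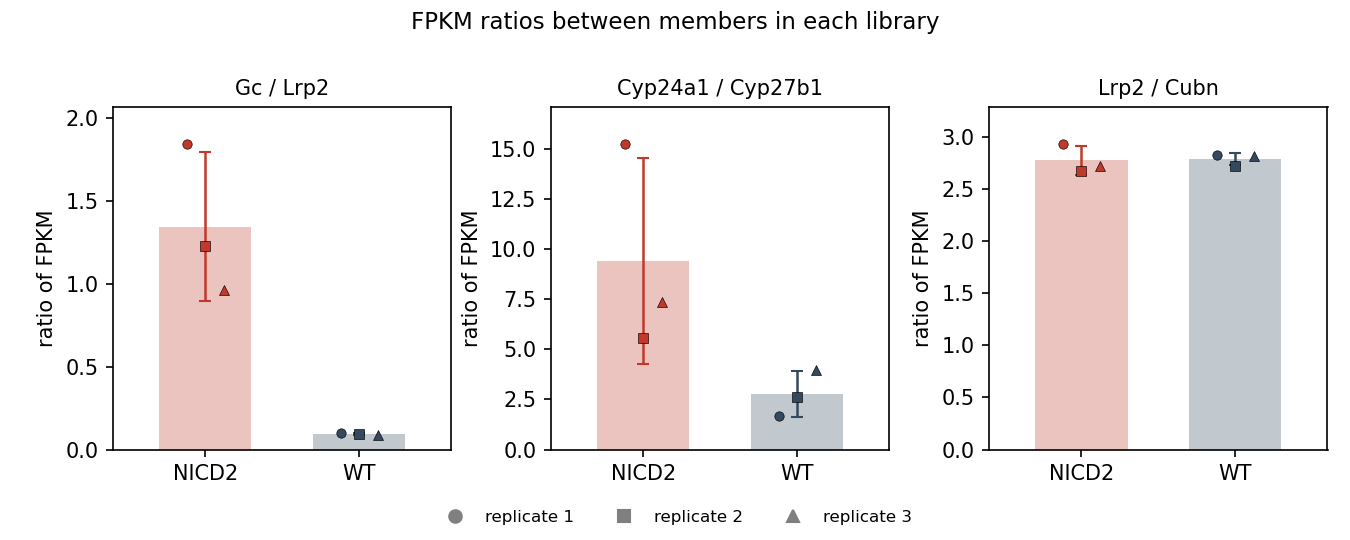
Ratios of FPKM in each library (points, shape by replicate) with group means (bars) and SD (error bars), NICD2 left of WT, n = 3 each. Gc over Lrp2 and Cyp24a1 over Cyp27b1 are higher in every NICD2 library than in any WT library, while Lrp2 over Cubn stays between 2.67 and 2.93 in all 6.

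All 10 genes passed the filter on low values (at least 1 FPKM in at least 3 libraries). In the limma fit across 13765 genes, Gc passed a Benjamini-Hochberg adjusted p of 0.05, higher in NICD2, and the other 9 did not. Of all genes tested, 8.79% passed in either direction, 4.93% higher and 3.86% lower in NICD2. Groups that did not overlap were found for Gc and Cyp24a1 (higher) and for Cyp27b1 and Clcn5 (lower), 4 of 10, against 30.5% of all genes tested. Nothing is read from these counts, since this comparison chose the genes. Clcn5 passed lower without WT replicate 1 and Cyp27b1 passed lower without WT replicate 3, at a log2 difference of -0.51. The median log2 difference of the 10 genes was -0.09, against -0.01 for all genes tested.

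**Figure D3:**
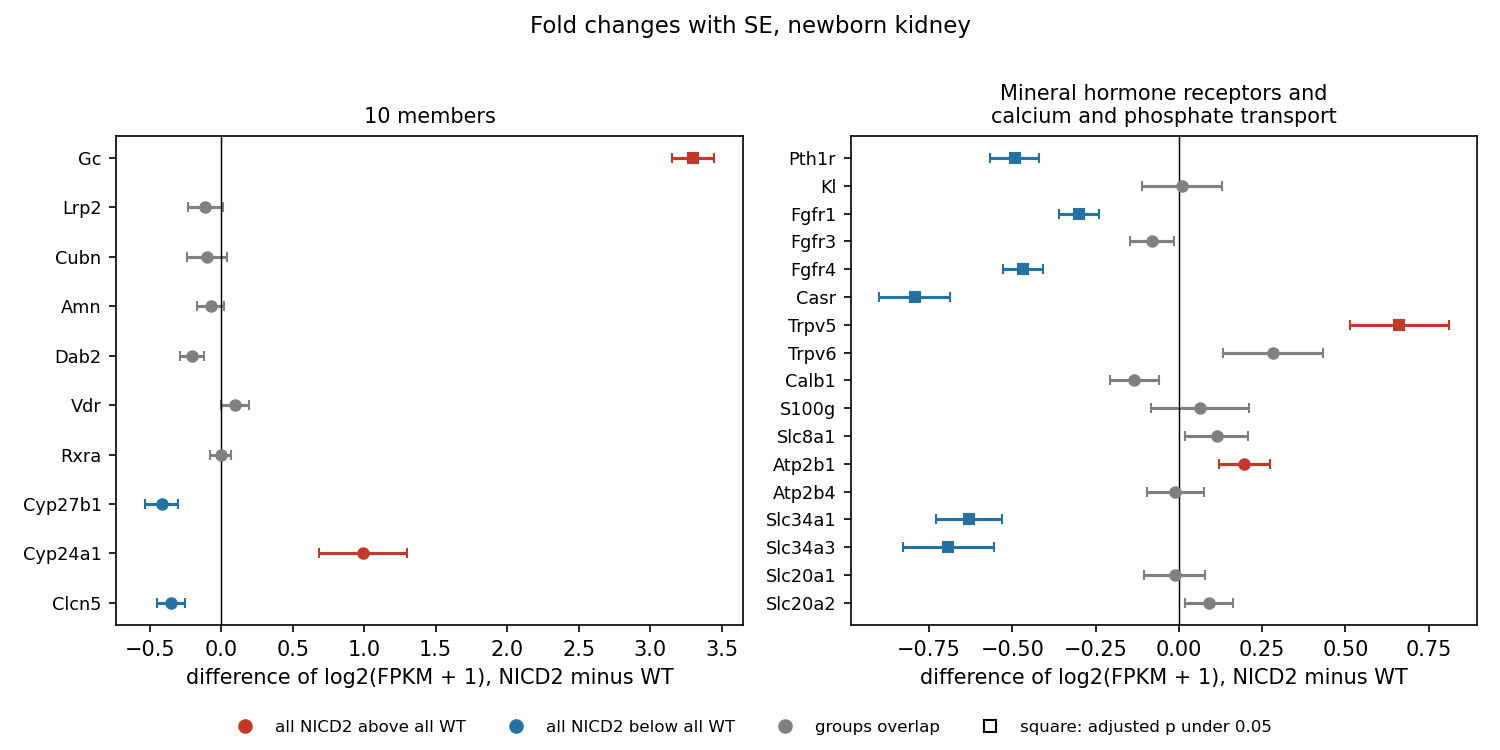
Differences of log2(FPKM + 1), NICD2 minus WT, with SE for the 10 genes (left) and for the tested genes of mineral hormone reception and of calcium and phosphate transport (right). The axes differ in range: Gc lies at 3.30 and Cyp24a1 at 0.99 on the left, and genes on the right lie between -0.79 (Casr) and 0.66 (Trpv5).

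Gc belongs to the albumin gene family, whose other members Alb, Afp and Afm lie on the same chromosome. Alb, serum albumin, held 0.12, 0.25 and 0.12 FPKM in NICD2, against 0.19, 0.09 and 0.09 FPKM in WT. Afp, alpha-fetoprotein, averaged 18.0 FPKM in NICD2 and 20.1 FPKM in WT, and Afm, the vitamin E carrier afamin, 13.2 FPKM in NICD2 and 14.4 FPKM in WT. Neither Afp nor Afm passed the test (log2 differences -0.16 and -0.12). The lower coordinates of Alb, Afp and Afm lie 1043 to 1101 kb from that of Gc.

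Of the 5 protein-coding genes on each side of Gc, 7 in all were tested. Alb, Npffr2 and Adamts3 had under 1 FPKM in every library and were not. The nearest on the side of lower coordinates, Slc4a4, encodes the sodium bicarbonate cotransporter of the proximal tubule. It rose, at 24.9, 26.6 and 29.4 FPKM in NICD2, against 11.5, 16.7 and 15.8 FPKM in WT (log2 fold change 0.85 ± 0.13, SE, limma adjusted p = 0.00528). The lower coordinate of Slc4a4 lies 624 kb from that of Gc. Slc4a4 ends at 89239656 and Gc spans 89417511 to 89457898. The other 6, Rufy3, Grsf1, Mob1b, Dck, Cox18 and Ankrd17, had log2 differences between -0.17 and 0.24, and none passed.

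**Figure D4:**
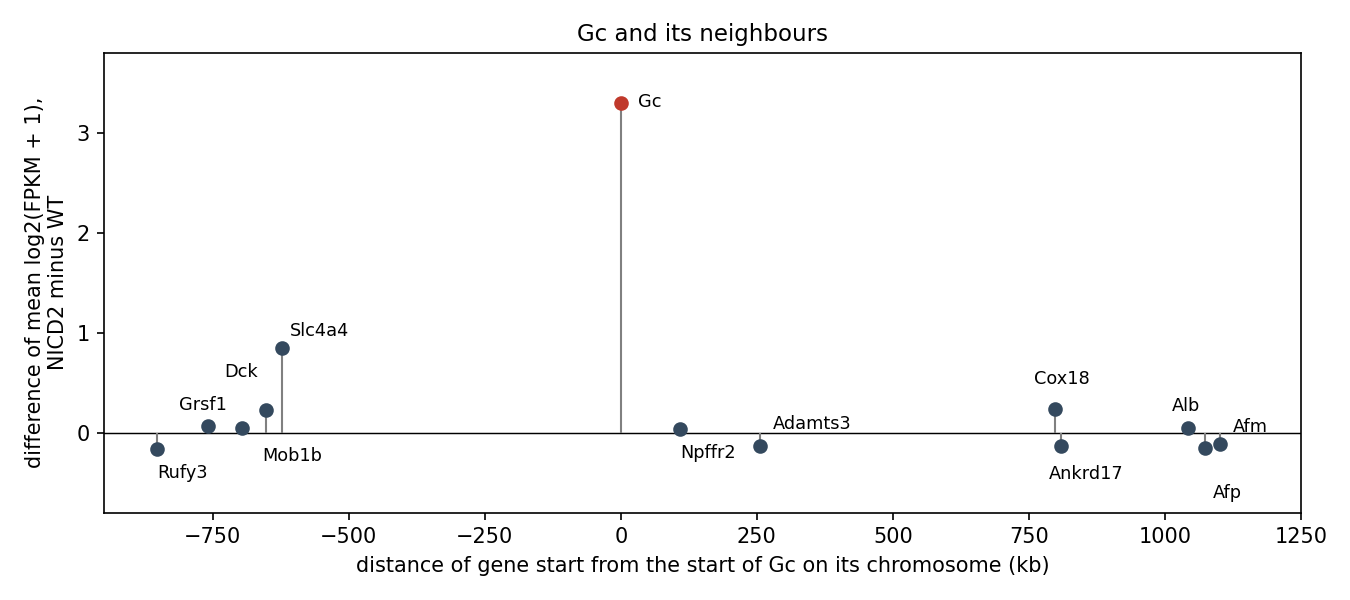
Difference of mean log2(FPKM + 1), NICD2 minus WT, of Gc, 5 protein-coding genes on each side and the further albumin family genes Afp and Afm, by distance in kb between gene starts (lower coordinates) on chromosome 5. Gc stands at 3.30, Slc4a4 at 0.85 and every other gene between -0.17 and 0.24.

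Gc is made mainly by the liver, so hepatocyte genes were set beside it. Of 24 hepatocyte markers, 8 were tested and 1 of them rose, while none fell. Their median log2 difference was -0.14. Their summed level was 117 to 154 FPKM in NICD2 and 144 to 163 FPKM in WT, most of it from Ttr and Serpina1a. Alb, Apob, Ahsg and F2, picked from the list after their values were seen, stood at no more than 0.25 FPKM in any library. Other markers of the list were higher. Apoa2 averaged 9.31 FPKM in NICD2 and 8.36 FPKM in WT, and Serpina1b 10.5 FPKM in NICD2 and 9.36 FPKM in WT. The marker that rose was the fibrinogen chain Fgb, at 5.17 FPKM in NICD2 and 2.76 FPKM in WT (limma adjusted p = 0.0258), with no call without NICD2 replicate 3 (adjusted p = 0.0520) or without any 1 of the WT libraries (up to 0.0743).

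Among 18 plasma carrier and defence proteins, 13 were tested, 3 rose and 1 fell. Haptoglobin (Hp), which binds free haemoglobin, rose to 22.8 FPKM in NICD2, against 3.47 FPKM in WT (log2 fold change 2.42 ± 0.12, SE, limma adjusted p = 1.81e-05). Lipocalin 2 (Lcn2), an iron carrier that megalin takes up, held 33.4, 24.4 and 13.0 FPKM in NICD2, against 6.69, 6.06 and 5.28 FPKM in WT (adjusted p = 0.00660). Beta-2-microglobulin (B2m), another filtered ligand of megalin, rose to 374 FPKM in NICD2, against 210 FPKM in WT (adjusted p = 0.00365). The glucocorticoid carrier Serpina6 fell to 277 FPKM in NICD2, against 359 FPKM in WT (adjusted p = 0.0416), and had no call in 5 of 6 leave-one-out fits, all but that without NICD2 replicate 3 (up to 0.139). The replicate block (adjusted p = 0.0778) and no filter on low values (adjusted p = 0.0876) gave it no call either. The retinol carriers Ttr and Rbp4 and the cobalamin carrier Tcn2 did not pass. The median of the list was -0.13.

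Other genes of vitamin D metabolism and reception gave no call. Of 16 such genes 12 were tested and none passed, while 3450 of all genes tested reached an unadjusted p under 0.05 and 3 of these 12 did. Cyp27a1, a mitochondrial hydroxylase that can make the precursor of calcitriol, held 3.05, 2.94 and 3.09 FPKM in NICD2, against 4.75, 4.14 and 3.6 FPKM in WT (log2 difference -0.35 ± 0.10, SE, limma adjusted p = 0.0656). It passed without WT replicate 3 (adjusted p = 0.0487, range over alternatives up to 0.175). Cyp2r1, the main hydroxylase of vitamin D in the liver, stayed under 1 FPKM in every library. Dhcr7, which consumes the sterol from which skin makes vitamin D, averaged 9.80 FPKM in NICD2 and 11.7 FPKM in WT (adjusted p = 0.140).

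Receptors of the hormones that set Cyp27b1 and Cyp24a1, together with calcium and phosphate transporters, formed a list of 18 genes, 17 of them tested. Of these 6 fell and 1 rose, with a median log2 difference of -0.01. Casr, the calcium-sensing receptor, fell to 4.10 FPKM in NICD2, against 7.82 FPKM in WT (log2 fold change -0.79 ± 0.11, SE, limma adjusted p = 0.00277). Pth1r, the parathyroid hormone receptor whose signal induces Cyp27b1, fell to 76.1 FPKM in NICD2, against 107 FPKM in WT (adjusted p = 0.00479). Fgfr4 and Fgfr1, receptors for FGF23, which lowers Cyp27b1 and raises Cyp24a1, fell to 13.3 and 38.0 FPKM in NICD2, against 18.8 and 47.0 FPKM in WT (adjusted p = 0.00223 for Fgfr4 and 0.0173 for Fgfr1). Another receptor, Fgfr3, did not pass, at 12.5 FPKM in NICD2 and 13.3 FPKM in WT (adjusted p = 0.502). Their co-receptor Kl, klotho, did not pass, at 36.2 ± 1.999 FPKM in NICD2 and 36.4 ± 6.51 FPKM in WT (SD, n = 3 each).

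Of the 4 phosphate transporters in the same list, Slc34a1 and Slc34a3 of the proximal brush border fell, and Slc20a1 and Slc20a2 did not pass (log2 differences -0.01 and 0.09). Slc34a1 held 216, 282 and 238 FPKM in NICD2, against 378, 391.8 and 365 FPKM in WT (adjusted p = 0.00579). Slc34a3 held 0.72, 1.34 and 1.24 FPKM in NICD2, against 2.21, 2.54 and 2.35 FPKM in WT (adjusted p = 0.0167). The calcium channel Trpv5 of the distal tubule rose, at 8.10, 4.80 and 5.78 FPKM in NICD2, against 3.46, 3.53 and 3.47 FPKM in WT (adjusted p = 0.0293). Other distal calcium genes that calcitriol induces, Trpv6, Calb1 and S100g, did not pass, with log2 differences of 0.28, -0.13 and 0.06. Without WT replicate 2 the list had 4 calls in place of 7. Of 6 leave-one-out fits, 4 did not call Trpv5, 3 Fgfr1 and 2 Slc34a3 (adjusted p up to 0.0917). Without NICD2 replicate 3 the adjusted p was 0.0539 for Trpv5 and 0.0605 for Fgfr1, and 5 genes of the list were called. Fgfr1, Fgfr3, Slc34a3, Slc20a1, Slc20a2, Trpv5, Kl, Trpv6, Calb1 and S100g were named after their values were seen.

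Of 26 genes of the general endocytic machinery, all tested, none passed in limma, and their median log2 difference was -0.00059. An unadjusted p under 0.05 was found for 3 of the 26, against 3450 of the 13765 genes tested. Lrpap1, the chaperone that escorts megalin to the surface, held 60.5, 65.4 and 70.1 FPKM in NICD2, against 70.5, 77.2 and 73.2 FPKM in WT (log2 difference -0.17 ± 0.07, SE, limma adjusted p = 0.179). All NICD2 libraries lay just below all WT libraries. Appl2, an effector of early endosomes, averaged 14.8 FPKM in NICD2 and 17.6 FPKM in WT (adjusted p = 0.0658). Rab5a, a small GTPase of early endosomes, held 53.1, 46.8 and 48.5 FPKM in NICD2, against 42.4, 45.2 and 45.2 FPKM in WT (adjusted p = 0.194), with all NICD2 libraries above all WT libraries.

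Of 21 genes of endosome and lysosome acidification and cargo handling, 2 rose and 1 fell. Besides B2m, also in this list, the lysosomal exchanger Clcn7, a relative of Clcn5, rose to 11.8 FPKM in NICD2, against 9.83 FPKM in WT (limma adjusted p = 0.0413). No leave-one-out fit called Clcn7, nor did the replicate block (adjusted p = 0.0787 with the block, 0.116 without NICD2 replicate 3, up to 0.129 over all alternatives). Ctns, the lysosomal cystine exporter, fell to 7.43 FPKM in NICD2, against 10.1 FPKM in WT (adjusted p = 0.0189), with no call in 4 of 6 leave-one-out fits (0.0599 without NICD2 replicate 3, up to 0.0644). Without NICD2 replicate 2 or WT replicate 3 the list had 1 call. The exchanger Slc9a3, which works with megalin at the brush border, held 5.29 FPKM in NICD2 and 7.06 FPKM in WT and did not pass (adjusted p = 0.0615). The replicate block gave it an adjusted p of 0.0457, and leaving out NICD2 replicate 3 one of 0.0412.

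Proximal tubule markers, which mark the cells that hold Lrp2, Cubn and Cyp27b1, gave 6 lower and 1 higher of 29 tested, with a median log2 difference of -0.06. Their summed level was 2282 to 2680 FPKM in NICD2 and 2945 to 3116 FPKM in WT, without overlap. Most of that gap lies in Kap, the highest of these markers in WT, and in Slc34a1, at 245 FPKM in NICD2 and 378 FPKM in WT. The mean log2(FPKM + 1) of the markers was 5.31 ± 0.0791 in NICD2 and 5.39 ± 0.0919 in WT (SD, n = 3 each). The groups did not overlap for 11 lower and 2 higher of the 29, against 15.5% lower and 15% higher of all genes tested. Without WT replicate 2, 4 of them were called in place of 7. The marker that rose is Slc4a4, described above. Those with the smallest p besides it were Slc34a1, Ttc36, at 86.8 FPKM in NICD2 and 131 FPKM in WT, and Kap, at 709 FPKM in NICD2 and 1092 FPKM in WT (adjusted p = 0.00281 for Ttc36 and 0.0134 for Kap). In whole kidneys, fewer cells of a type and less RNA per cell cannot be told apart.

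Markers of other cells moved too. Of 14 distal nephron and collecting duct markers 7 fell and 3 rose, with a median log2 difference of -0.59 and a mean log2(FPKM + 1) of 4.69 ± 0.0902 in NICD2 and 5.30 ± 0.0379 in WT (SD, n = 3 each). Their sum was 724 to 828 FPKM in NICD2 and 740 to 793 FPKM in WT, and it includes Umod, which rose to 337 FPKM in NICD2, against 114 FPKM in WT (limma adjusted p = 2.2e-05). Without NICD2 replicate 3, 12 of the 14 were called. Of 10 podocyte markers 7 fell, with 330 to 350 FPKM in NICD2 and 421 to 469 FPKM in WT. Of 11 tested macrophage markers 1 rose, Cd14 (limma adjusted p = 0.0374), which 4 of 6 leave-one-out fits did not call (up to 0.0984). With the replicate block 5 of them passed. Their sum was 130 to 185 FPKM in NICD2 and 99.6 to 141 FPKM in WT. Erythroid markers gave no call by limma among 6 tested, 1 of which, the anion exchanger Slc4a1, had an unadjusted p under 0.05. Slc4a1 is also among the 14 distal nephron and collecting duct markers, so its values do not tell these cells apart. It was the only 1 of the 6 erythroid markers whose groups did not overlap. Slc4a1 passed, lower in NICD2, when NICD2 replicate 3 was left out (adjusted p = 0.0129), and likewise for NICD2 replicate 1 (0.0383). The erythroid sum was 2283 to 3713 FPKM in NICD2 and 2581 to 6107 FPKM in WT. The part of these cells in the levels of Gc, Cyp24a1, Cyp27b1 and Clcn5 was not tested.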

How the data were processed

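RNA of 6 whole kidney samples at postnatal day 3 was sequenced, 3 R26NICD2/+Kspcre (NICD2) and 3 wild type (WT). The authors deposited FPKM per gene, to 2 decimals, with transcript length in bases as another column. Log2 fold changes, p-values and q-values of the authors' DEGseq comparison were also deposited, per the file headers. Those log2 values are quoted for Gc, Cyp24a1 and Cyp27b1 only, and 27 columns comparing pairs of samples were not used. Bowtie 0.12.2 and mm8 appear without a role, per the submitters' processing notes, while chromosome accessions in the table are those of GRCm38. Which program made the FPKM is not stated there.

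Of 23669 rows, 4010 had no FPKM. The 13765 genes that reached 1 FPKM in 3 or more libraries were compared on log2(FPKM + 1) with limma 3.58.1 in R 4.3.3 (trended variance, two-sided, Benjamini-Hochberg adjustment over all genes, threshold 0.05), a procedure tested on simulated data. Depth was estimated by taking low values as whole fragments: 88.5% to 91.7% lay within 0.15 fragments of a whole number, against 30% by chance. The genes and lists were chosen with earlier results of these data known. Named in the text are the 10 genes, the genes that check the labels, up to 4 genes of each list with the smallest p, 5 neighbours on each side of Gc, and genes among the 5 most like Gc and the 5 most like Cyp24a1. Some results under this rule are not reported here. Other names were chosen after their values were seen. Alternatives were another pseudocount, other filters and scalings, a replicate block and leaving out each library.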

Additional observations from a re-analysis of the deposited data

How the results depend on the processing

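The log2 difference of Gc was 3.13 to 3.63 over 12 alternatives, a description, since its values chose it. Leaving out a library gave 603 to 955 genes called, against 1210 with all 6. It gave 1 to 2 of the 10 genes, 0 to 1 of the vitamin D metabolism list, 4 to 7 of the mineral list, 1 to 2 of the endosome and lysosome list (3 with all libraries), 4 to 7 proximal tubule markers, 0 to 1 hepatocyte markers, 0 to 1 erythroid markers and 0 to 1 macrophage markers. With no filter on low values, 1 gene of the vitamin D list, 4 proximal tubule markers, 0 hepatocyte markers and 0 macrophage markers passed. With a mean of at least 5 FPKM, 0 hepatocyte and 0 macrophage markers passed. The cause was not tested. No called value changed sign. Of 1084 single-gene values under alternatives, 66 lost a call and 7 gained one. Whether replicate numbers pair the samples is not in the labels. Over all genes no pairing by number was seen: deviations of same-numbered libraries correlated at -0.0327, 0.059 and -0.0453. No library correlated best with its own number. NICD2 replicate 1 correlated best with WT replicate 3 (0.246), NICD2 replicate 2 with WT replicate 1 (0.207) and NICD2 replicate 3 with WT replicate 2 (0.235). Whether these are pairs was not tested, and the block by replicate number does not cover them. The replicate block gave 1055 genes called and 5 macrophage markers. Scalings moved the median of all genes by little, to between -0.01453 and 0.003402. With 3 libraries a group, a log2 difference as small as that of Dab2 (-0.21) did not pass, which does not show that the groups are alike.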

Other observations

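Among the genes whose log2(FPKM + 1) followed Gc most closely over the 6 libraries were Fgfbp1, Gsta3, Cgn and Efna3, with Pearson r of 0.998 to 1.00, a description that the difference between the groups carries. Fgfbp1, which releases bound fibroblast growth factors, held 80.8, 57.5 and 50.7 FPKM in NICD2, against 3.84, 4.38 and 4 FPKM in WT. Efna3, an ephrin ligand, held 24.7, 17.5 and 15.7 FPKM in NICD2, against 2.38, 2.41 and 2.43 FPKM in WT. In both genes NICD2 replicate 1 was the highest library, as for Gc. The genes most like Cyp24a1 were Fadd, Cited2, Nfe2l2, Rab5a and Arhgef26 (r 0.986 to 0.992), and none of them passed the test between the groups.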
